A study of Mus musculus with 8 samples.

Results

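The cells described here were day 0 hippocampal progenitors that carried messages of early DNA replication and in which no molecule of Top2a, the topoisomerase whose message accumulates later in the cycle, was captured. A value of 0 does not show that the message was absent, since a droplet library captures part of a cell's RNA. A cell was selected when its Top2a value was 0 and its score, the mean log2 value over Mcm6, Tipin, Atad2 and Nasp, was at least 1. The rule kept 394 of the 9188 day 0 cells, out of 30408 cells in the whole series. They came from 2 libraries, with 220 of 4331 cells in the Kmt2d+/βgeo library and 174 of 4857 cells in the wild-type library. Cells without Top2a and with a score below 0.5 served as the comparison within each library, 1075 and 1509 cells. Values from both libraries are given with Kmt2d+/βgeo first.

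Embryos came from C57BL/6J females mated to Kmt2d+/βgeo males, and both genotypes were littermates. The labels give embryonic day 18 and the dentate gyrus as source, whereas the study's methods give an age 1 day younger and the hippocampus. Kmt2d+/βgeo cells carried 1 copy of the gene-trap allele Mll2Gt(RRt024)Byg, which places a β-galactosidase and neomycin resistance fusion in Kmt2d. The other library was labelled with the strain C57BL/6J and a wildtype allele. At day 0 the cultures of both genotypes were undifferentiated and held in EGF and FGF2, and days 2, 4 and 8 followed the removal of these factors. The libraries were droplet single-cell libraries of 3′ ends with molecular barcodes (UMIs) that count captured RNA molecules once each. There was 1 library per genotype and day here, although the study's methods mention replicate cultures, so culture, animals and genotype cannot be told apart. An exact permutation test over 2 libraries cannot give a p below 0.5, and no p was computed.

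The MCM helicase is loaded onto replication origins before S phase begins. Around the G1 to S step, E2F transcription factors raise a set of genes for helicase loading, nucleotide synthesis, polymerases and histone supply. Transcripts of mitosis and chromosome condensation accumulate afterwards, through S phase into G2. Mcm6 is a subunit of the MCM helicase, Tipin stabilises paused replication forks, Atad2 is a bromodomain ATPase of replicating chromatin, and Nasp is a histone chaperone. Neural progenitors of the dentate gyrus keep dividing in growth factors, and the progenitor pool gives rise to granule neurons and astrocytes.

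The 4 genes were not equally strong in the selected cells. These values chose the cells and are a description, and 3′ tags count molecules, so they are not scaled by gene length. Nasp had a mean log2 value of 2.11 (SD 0.67, n = 220 cells) and 1.89 (SD 0.64, n = 174 cells), against 0.47 and 0.42 in comparison cells. Tipin stood at 1.49 and 1.56 against 0.24 and 0.21. Mcm6 stood at 1.3 and 1.32 against 0.092 and 0.11. Atad2 was the lowest at 0.86 and 0.73 against 0.059 and 0.052. All 4 genes were detected in 105 and 79 selected cells, 3 genes in 99 and 83 cells, and 2 genes in 16 and 12 cells. No selected cell passed on a single gene. Over cells without Top2a, pairs of these genes had Pearson correlations of 0.27 to 0.35 across 1792 cells and 0.20 to 0.27 across 2179 cells, where all cells of a library share its depth range.

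The score fell off without a gap at the threshold. The lowest selected cells had scores of 1.003 and 1.002, and the highest cells left out had 0.998 and 0.99995. Within 0.1 above the threshold lay 43 and 50 cells, and within 0.1 below it 51 and 51. The share of cells without Top2a was lower at high scores. It was 66.2% of cells (62.98 to 69.3, exact 95% binomial interval) and 63.5% (60.8 to 66.2) at scores under 0.25. At scores from 1 to 1.25 it was 22.7% (18.6 to 27.2) and 27.7% (22.8 to 33.1). At scores of 2 or more it was 5.79% (3.62 to 8.71) and 4.62% (2.55 to 7.63). Median total UMIs were higher at high scores, 20187 and 19078.5 under 0.25 and 30917 and 28682 at 2 or more. Intervals in this text cover counting error only.

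**Figure D1:**
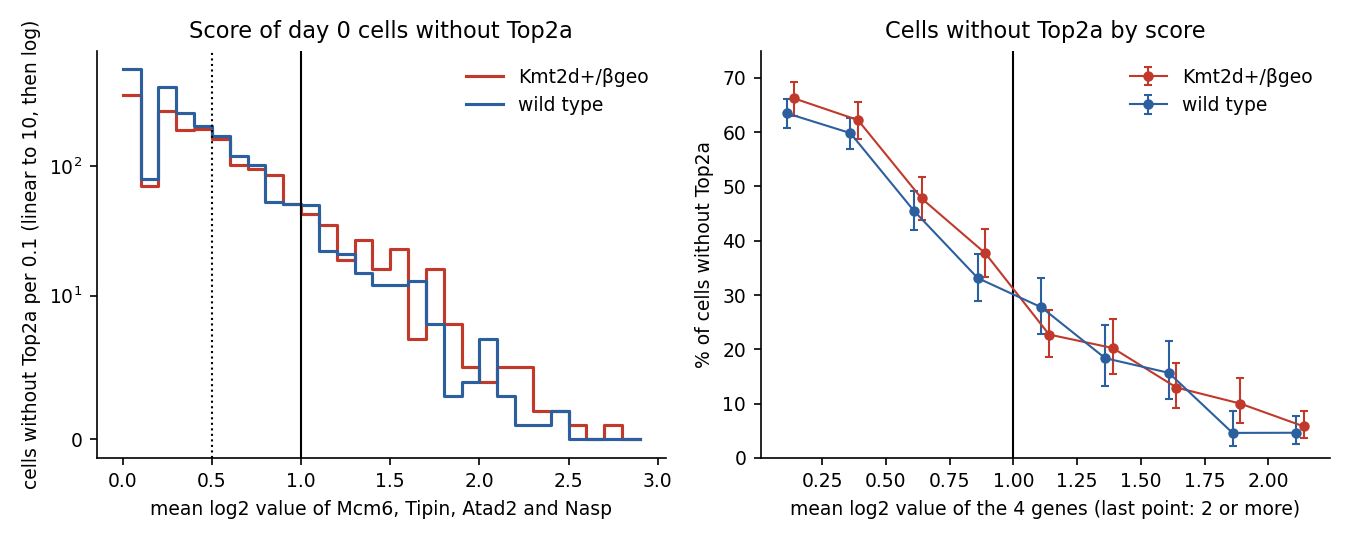
The left panel counts day 0 cells without Top2a in score bins of 0.1 (linear axis up to 10 cells, log above), with lines at 0.5 and 1, and the right panel gives the percentage of all cells in a score bin that lacked Top2a with exact 95% binomial intervals. Red is Kmt2d+/βgeo and blue is wild type. Both libraries fall off through the threshold of 1 with no gap, and the share without Top2a drops from 66.2% and 63.5% to 5.79% and 4.62%.

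Promoter sequence is shown for 2 genes of the rule and for the 2 genes that stood out most among those the rule did not use, so that the E2F motif can be seen. Each run is the 250 bases before the annotated start from RefSeq, build GRCm38.p6, 5′ to 3′ on the gene's strand. Capitals mark any of TTTCCCGC, TTTCGCGC, TTTGCCGC or TTTGGCGC or their reverse complements. Promoters of Tipin and Atad2 are not shown.
Mcm6, chr1:128359706-128359955, minus strand: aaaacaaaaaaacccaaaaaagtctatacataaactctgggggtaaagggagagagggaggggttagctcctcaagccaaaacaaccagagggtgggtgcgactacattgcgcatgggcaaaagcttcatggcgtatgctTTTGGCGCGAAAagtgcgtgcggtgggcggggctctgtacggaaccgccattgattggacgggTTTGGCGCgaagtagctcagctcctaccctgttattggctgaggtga
Nasp, chr4:116627952-116628201, minus strand: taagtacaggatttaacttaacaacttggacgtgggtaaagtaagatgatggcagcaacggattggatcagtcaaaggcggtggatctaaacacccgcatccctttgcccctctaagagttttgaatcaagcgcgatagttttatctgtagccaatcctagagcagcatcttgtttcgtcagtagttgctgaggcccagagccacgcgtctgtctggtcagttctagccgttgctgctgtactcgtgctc
Hells, chr19:38930740-38930989, plus strand: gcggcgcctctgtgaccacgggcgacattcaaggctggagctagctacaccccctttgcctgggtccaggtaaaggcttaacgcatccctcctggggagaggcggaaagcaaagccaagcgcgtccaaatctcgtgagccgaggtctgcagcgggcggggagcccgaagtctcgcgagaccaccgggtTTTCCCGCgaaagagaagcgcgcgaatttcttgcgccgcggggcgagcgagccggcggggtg
Dtl, chr1:191575545-191575794, minus strand: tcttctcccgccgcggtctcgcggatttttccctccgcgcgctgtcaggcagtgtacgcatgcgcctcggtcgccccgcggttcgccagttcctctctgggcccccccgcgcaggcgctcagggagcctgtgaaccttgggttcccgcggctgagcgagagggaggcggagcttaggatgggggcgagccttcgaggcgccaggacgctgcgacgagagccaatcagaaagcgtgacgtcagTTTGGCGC

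The Mcm6 window held 3 matches, which began 110, 106 and 47 bases before the start, and the match at 106 overlaps the one at 110 on the other strand. Windows of Wdhd1, Chaf1a, Rrm1, Tyms and Apoe were also read and held 0 matches. Hells held 1 match at 62 bases and Dtl 1 match at 8 bases before the start, and the Nasp window held 0. Of all 32851 promoters given, 1.86% held such a match. Counted per gene, it was in 241 of the 5625 compared genes with a promoter (4.28%), in 40 of 273 genes that were higher in selected cells (14.7%) and in 14 of 320 that were lower (4.38%). Of all 342 genes counted as higher, 69 had comparison means below 0.1 in both libraries, and the share without them was not computed. A match was also in 18 of 174 genes (10.3%) that were lower in selected cells than in Top2a-positive cells with a score of at least 1. A match is only those letters in that window and shows no binding.

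Selected cells had more UMIs than comparison cells and fewer than Top2a-positive cells with a score of at least 1. A Top2a value of 0 is more likely in a shallow cell, so the rule itself bears on the second difference. Median total UMIs were 22872.5 and 21624 in selected cells, 19574 and 17661 in comparison cells, and 30141.5 and 29143 in Top2a-positive cells with a score of at least 1. The selected cells thus exceeded the comparison cells by 0.22 and 0.29 in median log2 UMIs (1.17-fold and 1.22-fold) and fell below the Top2a-positive cells by 0.40 and 0.43. They had medians of 3339.5 and 3282 detected genes against 3059 and 2868. The day 0 libraries shared 7 cell barcodes, and 1 selected cell carried one of them. With each cell drawn down to 3000 UMIs, the rule recovered 49.5% and 47.1% of the selected cells.

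Each of the 4 genes was then left out of the score in turn and read in the cells that the other 3 selected. The left-out gene was higher in the selected cells in all 4 cases and in both libraries. The 4 genes were chosen together for the rule, so these values restate their correlation and are a description. Selected here means the cells picked by the other 3 genes. These were 275 and 203 cells for Mcm6, 228 and 181 for Tipin, 350 and 277 for Atad2, and 155 and 127 for Nasp. Atad2 had mean normalised counts of 0.626 and 0.487 in selected against 0.0995 and 0.0902 in comparison cells, log2 ratios of 2.65 and 2.43. Mcm6 had 1.25 and 1.18 against 0.216 and 0.222, log2 ratios of 2.53 and 2.41. Tipin had 1.71 and 1.70 against 0.427 and 0.379, log2 ratios of 2.00 and 2.17. Nasp had 3.36 and 2.64 against 0.983 and 0.778, log2 ratios of 1.77 and 1.76. The share of cells with a UMI showed the same order within each gene, for Mcm6 58.2% and 59.6% against 18.0% and 17.1%. After thinning to 3000 UMIs it was 31.0% and 29.1% against 7.93% and 7.31%, and the 8 log2 ratios ran from 1.80 to 2.87.

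Across the genes the rule did not use, 6965 reached a mean normalised count of 0.1 in selected or comparison cells of both libraries. A gene was counted as higher or lower when its log2 ratio of mean normalised counts was past 0.5 in the same direction in both libraries. By this rule 342 genes were higher (4.91% of genes compared) and 399 were lower (5.73%), and 9 genes were past 0.5 in opposite directions. Read in 1 library alone, the counts were 594 higher and 825 lower in Kmt2d+/βgeo (8.29% and 11.5%) and 619 and 822 in wild type (8.64% and 11.5%). The median over all genes was -0.03 in both libraries. The 10 highest were Hells, Dtl, Wdr76, Gins1, Chaf1a, Wdhd1, Mcm4, Rbl1, Rad54l and Gins3, most of them genes of DNA replication and chromatin. All of these genes were read in the cells that the rule chose, so the values are a description. Comparison means of 9 of these 10 were below 0.1 in both libraries, so they entered the comparison only through selected cells and had to be higher there. The same held for 69 of the 342 higher genes, and 67 of the 399 lower genes entered only through comparison cells. In cells thinned to 3000 UMIs, 240 of the 342 and 259 of the 399 were still past 0.5 in both libraries. A difference of mean log2 values of 0.5, a stricter measure for genes seen in few cells, kept 28 higher and 8 lower genes.

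**Figure D2:**
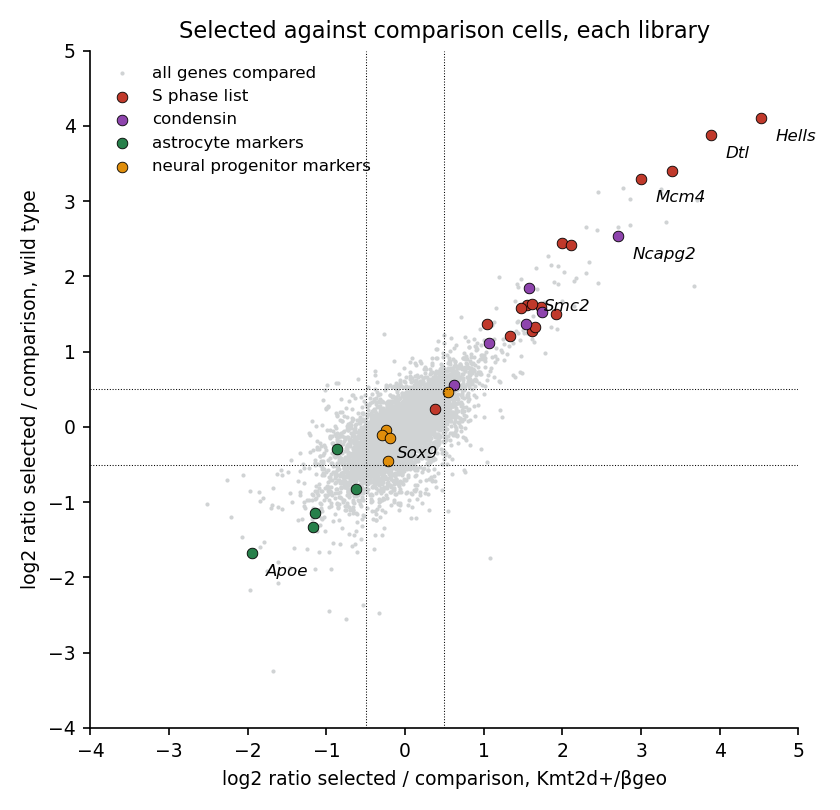
Each point is 1 of 6965 genes, placed by its log2 ratio of mean normalised counts in selected over comparison cells in the Kmt2d+/βgeo library (horizontal) and the wild-type library (vertical), with dotted lines at 0.5 in each direction. S phase genes (red) and condensin genes (purple) lie above and to the right, astrocyte markers (green) below and to the left, and neural progenitor markers (orange) from -0.45 to 0.55.

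Genes of the S phase list other than the 4 of the rule were higher nearly throughout. Of 43 genes in this list, 21 were in the matrix, 16 of the remaining 17 could be compared in both libraries, and 15 were higher and 0 lower, 4 of them admitted only through selected cells (background 4.91% and 5.73% of all genes). Their median log2 ratio was 1.69 and 1.61, and without those 4 genes 11 of 12 were higher, at 1.61 and 1.54. Hells, Dtl and Wdr76 are among those 4 and had to be higher in selected cells. Hells, a helicase of heterochromatin maintenance, had mean normalised counts of 1.2 and 0.838 in selected cells against 0.0520 and 0.0485 in comparison cells. Its log2 ratios of 4.53 and 4.11 led the whole table. Dtl, which targets the licensing factor Cdt1 for destruction in S phase, had 0.706 and 0.593 against 0.0475 and 0.0401, log2 ratios of 3.89 in both libraries. Wdr76, a WD-repeat protein, had 0.367 and 0.332 against 0.0348 and 0.0313. The exception was Ubr7, with log2 ratios of 0.38 and 0.24. The gene lists in this text share members, so their counts are not independent of each other. Dtl is also in the checkpoint and repair list, Hells in the chromatin assembly list and Mcm4 in the helicase list. Ncapd2 is in both the G2M and condensin lists, and Anln and Tmpo are in both the G2M and mitosis lists.

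Helicase loading and activation genes were split between strong and level members. Of 12 genes compared, 9 were higher and 0 lower (all genes 4.91% and 5.73%), with median log2 ratios of 0.92 and 0.96. Without 2 genes admitted only through selected cells, Gins1 and Gins3, it was 7 of 10, at 0.81 and 0.90. Mcm4, another MCM subunit, had mean normalised counts of 0.951 and 0.840 against 0.119 and 0.0857, log2 ratios of 3.0 and 3.29. Mcm7 had log2 ratios of 1.77 and 1.66. Gins1 and Gins3, subunits of the complex that activates the helicase, had log2 ratios of 3.25 and 3.16, and of 3.32 and 2.73, on 27 to 37 UMIs in selected cells of a library. Within the origin recognition complex, Orc6 (1.51 and 1.25) and Orc2 (0.78 and 0.85) were higher, whereas Orc3 had 0.21 and 0.17 and Orc4 0.08 and 0.24.

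Polymerase and fork genes followed. Of 19 compared, 15 were higher and 0 lower (all genes 4.91% and 5.73%), and the median log2 ratio was 1.42 and 1.27. The 15 include 4 genes admitted only through selected cells, Wdhd1, Dna2 and Atad5 among them, and without these 11 of 15 were higher, at 0.95 and 1.06. Wdhd1, which ties polymerase alpha to the helicase, had 0.301 and 0.237 against 0.0230 and 0.0292, log2 ratios of 3.71 and 3.02. Dna2, a nuclease of Okazaki fragments, reached 2.86 and 2.69. Atad5, which unloads the sliding clamp, reached 2.71 and 2.66, and the primase subunit Prim1 2.11 and 2.41. Top1, the topoisomerase of transcription as well as replication, had -0.10 and -0.01.

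Nucleotide supply genes were higher in 11 of 14 with 0 lower (all genes 4.91% and 5.73%), at median log2 ratios of 1.04 and 0.84. Without those admitted only through selected cells it was 9 of 12. Tyms, thymidylate synthase, had 0.751 and 0.515 against 0.199 and 0.182, log2 ratios of 1.92 and 1.5. Rrm1, the large subunit of ribonucleotide reductase, had 1.72 and 1.59, and the dUTPase Dut 1.68 and 1.83. Chromatin assembly genes were higher in 12 of 15 with 0 lower, at 1.16 and 1.05, and without 3 genes of that kind in 9 of 12, at 0.79 and 0.72. Chaf1a, the large subunit of chromatin assembly factor 1, is 1 of those 3 and had log2 ratios of 3.25 and 3.11. Dnmt1, the maintenance DNA methyltransferase, had 2.02 and 2.06.

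Checkpoint and repair genes were higher in 14 of 20 with 0 lower (all genes 4.91% and 5.73%), at 1.14 and 1.07. Of the 14, 6 were admitted only through selected cells, Rad54l, Blm and Rad18 among them. Of the 13 compared genes whose comparison mean reached 0.1 in at least 1 library, 8 were higher, at 0.85 and 0.80. Rad54l, a recombination motor protein, had 2.76 and 3.18 on 27 and 35 UMIs. Blm, a helicase of recombination, had 1.99 and 2.44, and Rad18, a ligase of damage tolerance, 2.46 and 1.91. The sensor kinase Atr did not pass, with 0.06 and 0.68.

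Regulators of the G1 to S step did not move as a block. Of 17 genes compared, 5 were higher and 2 lower (all genes 4.91% and 5.73%), and the median log2 ratio was 0.12 in both libraries. Without Rbl1, which entered only through selected cells, 4 of 16 were higher, at 0.07 and 0.11. Rbl1, a pocket protein that binds E2F, had 0.180 and 0.152 against 0.0250 and 0.0186, log2 ratios of 2.85 and 3.03. Skp2, which directs degradation of Cdkn1b, had 1.29 and 0.97, the E2F partner Tfdp1 1.05 and 1.15, and Cdc25a, a phosphatase that activates CDK2, 1.25 and 0.89. E2f3 was the other higher gene at 0.65 and 0.74. The lower genes, Cdkn2a and Cdkn1a, each encode a CDK inhibitor, and the counts per gene do not separate the transcripts of Cdkn2a. Cdkn2a had 1.99 and 1.82 against 4.30 and 3.42, log2 ratios of -1.11 and -0.91, and Cdkn1a had 1.61 and 1.27 against 3.17 and 1.89, log2 ratios of -0.98 and -0.58. Cdkn1b had -0.40 and 0.09.

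Condensin genes and some genes of mitosis were higher in selected cells than in comparison cells, both without Top2a by the rule. All 6 condensin genes compared were higher (all genes 4.91%), at median log2 ratios of 1.56 and 1.45. Of these 6, 5 reached 0.1 in comparison cells of at least 1 library. Smc2, the core condensin ATPase, had 1.08 and 1.22 against 0.360 and 0.339, log2 ratios of 1.58 and 1.85. Ncapg2 of condensin II, the gene of the 6 that entered only through selected cells, had 2.71 and 2.54. In the G2M phase list 10 of 16 were higher and 0 lower, with medians of 0.72 and 0.88 that were 0.62 and 0.61 in thinned cells, and without 2 genes admitted only through selected cells it was 8 of 14, at 0.60 and 0.70. Of 7 mitosis genes compared, 5 were higher, at 0.80 and 0.93. Kif11 and Anln entered only through selected cells, and without them 3 of 5 were higher, at 0.66 and 0.65. Kif11, the spindle motor, had 0.151 and 0.153 against 0.0700 and 0.0806, log2 ratios of 1.11 and 0.93. Of 11 cohesin genes, 1 was higher, Smc1a (0.54 and 0.57), where 4.91% of all genes were, and Rad21, Smc3 and Pds5a had log2 ratios from 0.46 to 0.52.

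Set against Top2a-positive cells with a score of at least 1, the selected cells had lower values in many replication genes and in most genes of condensation and mitosis. That class held 1296 and 1022 cells. Its mean normalised Top2a counts were 7.48 and 9.07, where selected cells have 0 by the rule. Genes whose message rises with Top2a were thereby set to be lower in selected cells, so these values are a description. Scores of the Top2a-positive class were also higher, with medians of 1.65 and 1.70 against 1.34 and 1.26 in selected cells. The classes thus share a threshold and not a score. Of 6852 genes compared, 25 were higher in selected cells in both libraries (0.365%) and 225 lower (3.28%). The 225 include genes admitted in a library only through Top2a-positive cells, which had to be lower in selected cells there. Hells had 1.2 and 0.838 in selected against 1.18 and 0.924 in Top2a-positive cells, log2 ratios of 0.02 and -0.14. Dtl had 0.09 and -0.23, and Wdhd1 0.13 and -0.07. These 3 genes differed by less than 0.25 log2 units between the classes. Other replication genes were lower in selected cells, among them Prim1 (-0.97 and -0.70), Atad5 (-0.56 and -0.91) and Rad54l (-1.63 and -1.36). Mcm4 had -0.34 and -0.23 and Mcm7 -0.36 and -0.41.

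Of 14 nucleotide supply genes, 5 were lower than in Top2a-positive cells (all genes 3.28%), at medians of -0.11 and -0.12. Among these 5, Rrm1 had 1.05 and 0.937 against 2.04 and 2.32, log2 ratios of -0.95 and -1.31, Tyms -1.17 and -1.52, and Dut -0.90 and -0.91. Smc2 had 1.08 and 1.22 against 4.56 and 4.59, log2 ratios of -2.08 and -1.91. Kif11 had 0.151 and 0.153 against 1.28 and 1.37, log2 ratios of -3.09 and -3.16, and Anln, a scaffold of cytokinesis, had -2.16 and -2.30. By list, 9 of 17 S phase genes were lower than in Top2a-positive cells at a median of -0.60 in both libraries. It was 10 of 20 polymerase and fork genes at -0.55 and -0.60, 9 of 22 checkpoint and repair genes at -0.39 and -0.43, 4 of 15 chromatin assembly genes at -0.36 and -0.50, and 2 of 12 helicase genes at -0.32 in both. It was 13 of 18 genes of the G2M list at -1.31 and -1.40, 5 of 6 condensin genes at -1.37 and -1.61, and 8 of 9 mitosis genes at -1.54 and -1.51. Against comparison cells, 16 S phase, 19 polymerase and fork, 20 checkpoint and repair, 16 G2M and 7 mitosis genes were compared. The further genes here reached 0.1 in at least 1 library only in Top2a-positive cells and had to be lower in selected cells there. Counts without them were not made. Median total UMIs were lower in selected than in Top2a-positive cells by 0.40 and 0.43 log2 units. The parts of depth, of the score and of the split by Top2a in these ratios were not tested.

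**Figure D3:**
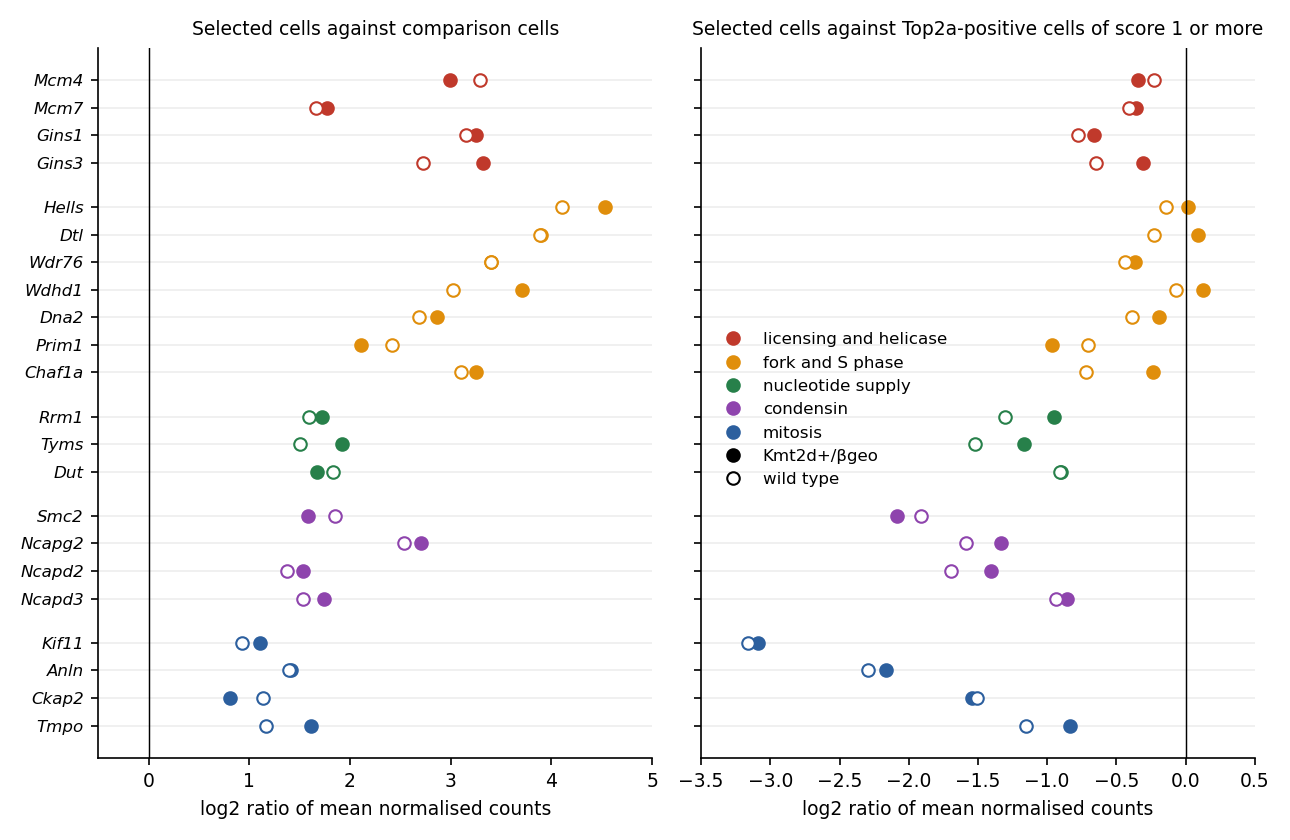
Log2 ratios of mean normalised counts for 22 genes by role, selected over comparison cells on the left and selected over Top2a-positive cells of score 1 or more on the right, with filled points for Kmt2d+/βgeo and open points for wild type. On the left every gene lies right of 0, where genes admitted only through selected cells, such as Hells, Dtl and Gins1, had to lie. The classes on the right are split by Top2a through the rule. There Hells, Dtl and Wdhd1 lie within 0.25 of 0. The 3 nucleotide genes shown and the condensin and mitosis genes lie to the left, down to -3.16 for Kif11.

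Position along the cycle was read as an angle θ in the plane of PC1 and PC2, computed from 445 cell-cycle genes without the 5 rule genes. Selected cells had circular means of 0.42π and 0.38π. The Top2a-positive cells of score 1 or more followed at 0.81π and 0.84π, and comparison cells lay at 1.97π and 1.95π, just before the origin of the circle. Of selected cells, 74.5% (68.3 to 80.2) and 70.1% (62.7 to 76.8) fell between 0.25π and 1.5π. The study took that window for S, G2 and M after projection into its neurosphere reference. Here the plane was learned on these day 0 cells, so the window was borrowed and not calibrated to phases. In comparison cells the share in the window was 3.91% (2.83 to 5.24) and 2.78% (2.01 to 3.74). In Top2a-positive cells of score 1 or more it was 96.7% in both libraries. Cells without Top2a whose score was between 0.5 and 1 held an intermediate 18.1% and 14.9%. In thinned cells the shares were 73.6% and 58.0% in selected cells and 10.8% and 6.56% in comparison cells. With the phase lists alone the wild-type share in selected cells was also 58.0%. The components explained 9.06% and 2.39% of the variance.

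**Figure D4:**
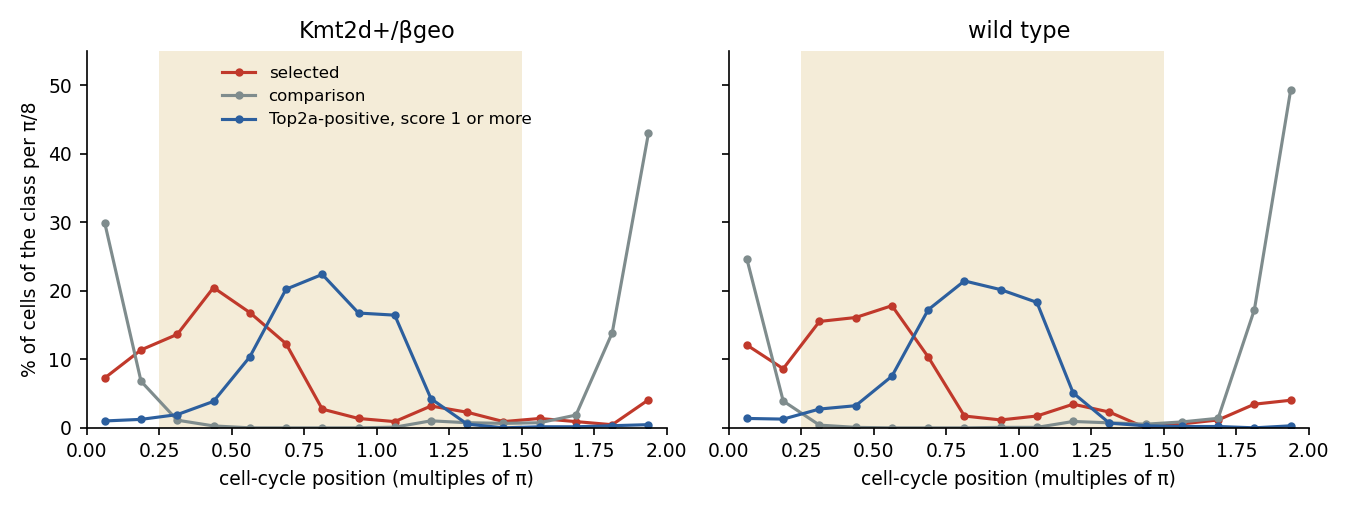
Percentage of each class in 16 equal bins along the cell-cycle position, for Kmt2d+/βgeo on the left and wild type on the right, with the window from 0.25π to 1.5π shaded. Selected cells (red) lie mostly between 0 and 0.75π, with circular means of 0.42π and 0.38π, between comparison cells (grey) near the origin and Top2a-positive cells of score 1 or more (blue) with means of 0.81π and 0.84π.

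The selected cells were not uniform. Of the 17 other S phase genes, a median of 8 were detected per selected cell in both libraries (quartiles 6 to 10 and 5 to 10), against 3 in comparison cells and 12 in Top2a-positive cells of score 1 or more. At least 5 were detected in 80.5% (74.6 to 85.5) and 83.3% (76.9 to 88.5) of selected cells, against 17.1% and 13.7% of comparison cells. All 17 genes had a higher mean log2 value at scores of 1.25 or more than at scores from 1 to 1.25, in both libraries. The bins are cut on the rule's own score and the share over all genes was not computed, so this is a description. Hells, Dtl and Wdr76 among the 17 had entered the gene comparison only through selected cells. Between these bins the mean log2 value of Hells went from 0.51 to 1.1 and from 0.42 to 0.89, that of Dtl from 0.23 to 0.74 and from 0.26 to 0.72, and that of Mcm4 from 0.51 to 0.94 and from 0.45 to 0.91. Kif11 went from 0.14 to 0.14 and from 0.18 to 0.093 between the same bins.

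The genes whose mean tracked the score most closely were not all replication genes. Over 6 score bins of cells without Top2a, the lower of the Pearson correlations in the 2 libraries was at least 0.98 for Psip1, Sqle, Hspd1, Skp2, Sumo2, Rfc2, Smchd1, Mrpl2, Cdv3 and Ranbp1. The bins share their libraries and rise in depth, and these genes were picked by their correlation with the rule's own score. How many genes reach such a correlation is not given here. Psip1, Sumo2, Smchd1, Mrpl2 and Cdv3 were not past a log2 ratio of 0.5 in both libraries, and the rest of those named were. Ranbp1, a regulator of the Ran GTPase, had 6.64 and 5.75 against 3.56 and 2.82, log2 ratios of 0.90 and 1.03. Sqle, an enzyme of cholesterol synthesis, had 0.70 and 0.83, and Hspd1, a mitochondrial chaperonin, 0.57 and 0.62.

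Among the genes that were lower, astrocyte markers stood out as a list. Of 8 markers 5 were in the matrix. Of these, 4 were lower and 0 higher (all genes 5.73% and 4.91%), at median log2 ratios of -1.15 and -1.14. Apoe, a lipid carrier of astrocytes, had 6.82 and 2.69 against 26.4 and 8.59, log2 ratios of -1.95 and -1.68. S100b, a calcium-binding protein, had -1.15 and -1.14, the glutamate transporter Slc1a2 -1.17 and -1.33, and Aldh1l1, a folate enzyme, -0.62 and -0.83. Gja1 had -0.87 and -0.29. The summed level of the 5 markers was 8.28 and 4.10 in selected against 29.3 and 11.4 in comparison cells, and Apoe made up most of each sum. A median of 2 of the 5 markers was detected per cell in both classes of both libraries. At least 3 were detected in 30.9% and 29.3% of selected and 46.5% and 42.6% of comparison cells. Gfap, Aqp4 and Aldoc were not analysed here. The part of a change in cell type in the results above was not tested. Against Top2a-positive cells of score 1 or more, 0 of the 5 differed in both libraries, with medians of -0.11 and -0.04. Over all genes, 0.365% were higher and 3.28% lower in that comparison.

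Other genes among the 10 lowest included Abca1, a lipid exporter (-2.08 and -1.47), and Timp3, an inhibitor of matrix proteases (-1.46 and -1.88). Rnf182 (-1.97 and -2.17), Mmd2 (-1.76 and -1.92) and the cyclin Ccng2 (-1.62 and -2.08, on 13 and 8 UMIs) were also among them. Fbxo32 rested on 6 UMIs in selected cells of each library. Ccng2 and Fbxo32 entered only through comparison cells. Means of Ccng2 were 0.135 and 0.161 in comparison cells and higher, 0.155 and 0.246, in Top2a-positive cells of score 1 or more. The quiescence-associated list gave 1 of 6 lower (all genes 5.73%), Sparcl1 at -0.76 and -0.56, and medians of -0.44 and -0.52. Of 5 progenitor markers 0 were past the threshold in both libraries (all genes 4.91% higher and 5.73% lower), at medians of -0.22 and -0.11. Vim, an intermediate filament of progenitors, had 35.4 and 25.5 against 41.3 and 35.0, log2 ratios of -0.22 and -0.45. Sox9 had -0.29 and -0.11, and Pax6, a transcription factor of progenitors, had 0.55 and 0.47. Olig2 had -0.19 and -0.35, and the neuronal genes Map2 and Prox1 had log2 ratios from -0.07 to -0.56. Ribosomal protein genes, 47 compared, had 0 past the threshold and medians of 0.05 and 0.02. Microglial and vascular marker genes were not analysed here.

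In the genotype comparison within selected cells, Kmt2d itself, the gene of the altered allele, had mean normalised counts of 0.206 and 0.142, from 43 and 32 UMIs. In comparison cells they were 0.221 and 0.162. The position of these 3′ tags relative to the trap was not given in the sources used here, so they do not check the label. The selected share was 5.08% (4.44 to 5.78) against 3.58% (3.08 to 4.14), a difference of 1.5 percentage points (0.67 to 2.35, Newcombe interval). Top2a-positive cells of score 1 or more made up 29.9% and 21.0%, a difference of 8.88 points (7.10 to 10.7). As a share of all cells with a score of at least 1, selected cells made up 14.5% in both libraries, a difference of -0.037 points (-2.74 to 2.61). With 1 library each, genotype and culture cannot be told apart in these differences.

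Past a log2 ratio of 1, 118 of 7115 genes were higher in selected Kmt2d+/βgeo cells (1.66%) and 121 lower (1.7%), against 56 (0.785%) and 61 (0.856%) of 7130 genes in the larger comparison classes. These counts varied widely with the settings, to 372 and 416 in thinned cells, 17 and 18 with a minimum mean of 0.5, and 2 and 1 as a difference of mean log2. Of the 118 higher genes 80 had a wild-type mean below 0.1, and of the 121 lower genes 81 had a Kmt2d+/βgeo mean below 0.1, so they entered only through the library where they were higher. This holds for the 9 genes of largest difference named next. The highest was Col11a1, a fibrillar collagen chain, with 0.427 against 0.0257 (112 and 5 UMIs), a log2 ratio of 4.05 that was 2.91 in comparison cells. Plxdc2 had 3.01 against 2.56 there, and Ccdc106 had 3.08 against 2.05, on 3 UMIs in wild-type selected cells. Over summed UMIs the log2 ratio of Ccdc106 was 3.30, with an exact conditional 95% interval of 1.64 to 5.64. Kcnd2, a potassium channel subunit, had 30 and 2 UMIs and a log2 ratio of 3.58 over summed UMIs (1.60 to 6.69). Ccdc106 and Kcnd2 were picked by their large ratios, for which these intervals make no allowance. The lowest were St6galnac5 (-3.64 on 5 UMIs in Kmt2d+/βgeo, and -2.12 in comparison cells), Sema3c, a secreted guidance factor (-2.95 on 4 UMIs), 2210408F21Rik (-2.87 on 8 UMIs), Gm49980 (-2.86 on 11 UMIs) and St3gal6, a sialyltransferase (-2.48, and -1.73 in comparison cells). Between the genotypes in selected cells the replication lists had median log2 ratios of 0.17 (S phase), 0.11 (helicase), 0.06 (polymerase and fork) and -0.09 (checkpoint and repair). Members went both ways. Among 4 that reached 0.1 in selected cells of both libraries, Hells had 0.52 and Chaf1a 0.39, whereas Rad54l had -0.77 and Blm -1.16, on 34 and 57 UMIs.

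The day 4 libraries stood apart, since 0 of 7459 genes differed between their labelled genotypes by a log2 ratio of 1. At day 0, 48 genes of 7117 were higher and 62 lower, at day 2 it was 124 and 85 of 7364, and at day 8 it was 156 and 213 of 7576. The day 4 values are therefore given for the library labelled Kmt2d+/βgeo and the library labelled wild type. Few cells met the rule after growth factor removal. Day 2 gave 27 and 16 cells (0.551% and 0.390%), day 4 gave 24 and 40 (0.947% and 1.14%), and day 8 gave 46 and 33 (1.55% and 1.03%). Among cells with a score of at least 1, those without Top2a made up 57.4% and 66.7% on day 2. The share was 61.5% and 60.6% on day 4 and 86.8% and 52.4% on day 8, compared with 14.5% in both day 0 libraries.

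Day 2 cells that met the rule carried little of the rest of the S phase list. Read in 1 library at a time, 16 of 17 and 15 of 16 of its genes were higher by 0.5 at day 0 (all genes 8.29% and 8.64%). These include genes admitted only through selected cells, Hells and Dtl among them, which had to be higher there. At day 2, 4 of 10 and 5 of 10 were higher, with 2 lower in each library. Over all genes at day 2, the 5 rule genes included, 21.9% and 28% were higher and 16.6% and 21.2% lower. The median log2 ratio was 1.72 and 1.61 at day 0, 0.28 and 0.54 on day 2, 1.08 and 1.57 on day 4, and 1.38 and 1.84 on day 8. These medians cover different genes, 17 and 16 at day 0, 10 in each library on day 2, 16 and 15 on day 4 and 15 in each on day 8. On days 4 and 8, Hells and Dtl again entered only through the cells that met the rule. Medians without such genes were not computed for later days. Summed over the 17 genes, mean normalised counts were 2.89 and 3.38 against 2.63 and 2.41 in day 2 comparison cells, and 11.4 and 10.3 against 3.21 and 3.0 at day 0. Hells was 0.035 and 0 on day 2, 0.455 and 0.489 on day 4 and 0.330 and 0.796 on day 8. All 4 rule genes were detected in 7.41% and 6.25% of the day 2 cells, compared with 47.7% and 45.4% at day 0. Median UMIs of cells that met the rule were 22872.5 and 21624 at day 0, 14409 and 13212 on day 2, and 19918.5 and 16614.5 on day 4. Day 8 cells that met the rule had median UMIs of 7551 and 11482, and 58.7% of those in the Kmt2d+/βgeo library passed on 2 or fewer genes. The part of depth in the shares without Top2a on later days was not tested. The values of later days rest on 16 to 46 cells.

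**Figure D5:**
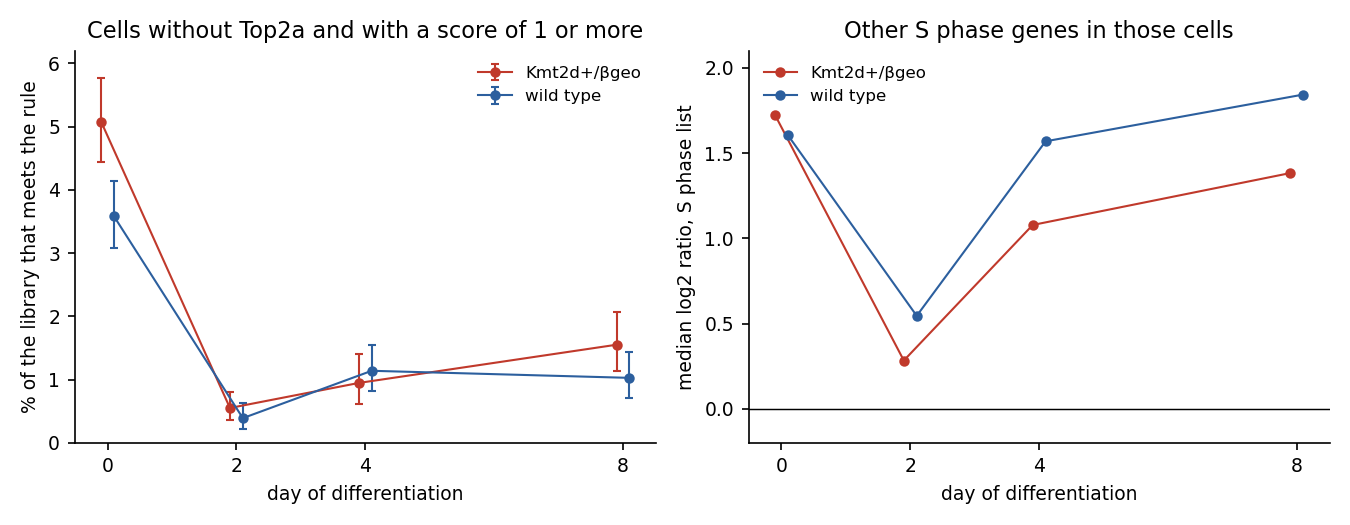
Percentage of each library that met the rule with exact 95% binomial intervals (left) and the median log2 ratio of the other S phase genes in those cells over comparison cells of the same library (right), by day of differentiation, for Kmt2d+/βgeo (red) and wild type (blue) as labelled. The share falls from 5.08% and 3.58% to 0.551% and 0.390% between days 0 and 2. The S phase ratio is 0.28 and 0.54 at day 2 and is higher at days 0, 4 and 8. It covers 10 genes at day 2 and 15 to 17 genes on the other days, some admitted only through cells that met the rule.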

How the data were processed

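Droplet 3′ libraries (10x Chromium v3) of 8 cultures were analysed, and the results concern the 2 day 0 libraries. Per the submitters' processing notes, the authors used alevin in Salmon 1.3.0 and Seurat 3.2.2 with GRCm38. They removed cells of low quality and doublets before deposit, and no doublet caller was run here. The deposited matrix holds log2 values of library-size normalised counts for 9140 genes and 30408 cells. Total UMIs per cell, an estimated count from alevin, were read from the deposited cell table. Back-transformed values sum to 8707.1 in every cell, and the commonest value of a cell was taken as 1 UMI, with 86.7% of nonzero values within 0.01 of a whole UMI. Rounded UMIs served for thinning to 3000 per cell (4 selected and 8 comparison cells were shallower) and for UMI sums only, since the log2 values are not counts.

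For each gene the mean normalised counts of both classes were divided and the ratio taken to log2, with no pseudocount, where the mean reached 0.1 in either class, and counted at 0.5 in both libraries or, between genotypes, at 1. With 1 library per group no test was run. Shares have Clopper-Pearson intervals. The ratio and thinning code was tested on simulated data. The cell-cycle embedding used scran 1.30.0 (cyclone markers) in R 4.3.3, phase lists and Smc2, without alignment of libraries. Named genes were up to 4 per list, the 10 highest and 10 lowest, the 5 highest and lowest between genotypes and the 10 that followed the score. Atr, Orc2, Orc3, Orc4, Orc6, Top1, E2f3, Cdc25a, Cdkn1a, Cdkn1b, Gja1 and Ubr7 were named after their values were seen. The selected cells and the gene lists were chosen with earlier results of these data known, and so were the promoters shown. Python 3.11.15, numpy 2.4.6, scipy 1.17.1 and pandas 2.3.3 were used. The values of 1 gene are not reported here.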

Additional observations from a re-analysis of the deposited data

Results flagged for a closer look

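The stress response list had 2 genes in the matrix, and its median log2 ratio of selected over comparison cells was -0.072 in the Kmt2d+/βgeo library and 0.18 in the wild-type library. The opposite signs drew attention, but the difference between the libraries was not tested. Hspa5, a chaperone of the endoplasmic reticulum, had 0.51 and 0.64, and Ddit3, a transcription factor of that organelle's stress response, had -0.66 and -0.29, so each gene had the same sign in both libraries.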

How the results depend on the processing

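No paired analysis was possible because the genotypes have 1 library each and no replicates to pair, and selected and comparison cells were always compared within a library. Of the alternative values, 41 stayed within the limits set and 59 moved beyond them. No log2 ratio changed direction, and counts and shares could not, since they are never negative. The cause of the moves was not tested. The number of higher genes, 342, was 225 with a score of at least 0.8, 151 with a minimum mean of 0.5, 28 for a difference of mean log2 and 83 at a log2 ratio of 1. The number of lower genes, 399, was 259, 119, 8 and 44 in the same order, and 719 with no minimum mean. Against comparison cells matched on UMIs, a choice made after seeing the data, 298 were higher and 286 lower. With 1 library left out, also chosen after seeing the data, 594 to 619 were higher and 822 to 825 lower, where agreement of both libraries was no longer asked.

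The S phase median of 1.69 in Kmt2d+/βgeo was 1.36 and 2.00 with scores of at least 0.8 and 1.2, 1.93 and 1.53 against comparison cells below 0.25 and all below 1, 1.84 thinned, 1.82 with a minimum mean of 0.5, 0.41 as a difference of mean log2 and 1.77 with matched cells. In wild type the first 4 of these were 1.33, 1.82, 1.75 and 1.5, and the difference of mean log2 was 0.32. The G2M median in Kmt2d+/βgeo was 0.82 and 0.65 against comparison cells below 0.25 and all below 1, 0.62 thinned, 0.49 with a minimum mean of 0.5 and 0.20 as a difference of mean log2. In wild type it was 0.76 and 0.62 with scores of at least 0.8 and 1.2, 1.01 and 0.68 against the other comparison cells, 0.61 thinned, 0.57 with a minimum mean of 0.5 and 0.16 as a difference of mean log2.

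Selected shares were 8.24%, 3.28%, 8.22% and 8.08% in Kmt2d+/βgeo and 5.72%, 2.1%, 4.90% and 5.87% in wild type with scores of at least 0.8 and 1.2, thinned values and the log2 of 1 plus the mean count. Left-out Mcm6 and Nasp in Kmt2d+/βgeo were 2.19 and 1.92 thinned. The share in the θ window was 65.5% with own centring in Kmt2d+/βgeo, and in wild type 58.0% with phase lists and also thinned. Genes higher in Kmt2d+/βgeo within selected cells, 118, numbered 207 with scores of at least 1.2, 372 thinned, 17 with a minimum mean of 0.5 and 2 as a difference of mean log2. Genes lower, 121, numbered 79 with scores of at least 0.8, 416 thinned, 18 and 1.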

Other observations

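Single genes picked because they were high in selected cells are given as examples and stand for no group. Lmnb1 is already counted in the chromatin assembly list, and the others are in no list. Lmnb1, the B-type lamin, had mean normalised counts of 2.21 and 2.14 against 0.718 and 0.772, log2 ratios of 1.62 and 1.47. Dek, a chromatin protein, had 3.16 and 2.91 against 1.17 and 1.23, log2 ratios of 1.44 and 1.25. The splicing factors Srsf7 (0.83 and 0.88) and Srsf3 (0.68 and 0.64), the spliceosome core protein Snrpd1 (0.74 and 0.92) and the RNA-binding protein Hnrnpd (0.87 and 0.85) had lower ratios. So did the nucleolar genes Ncl (0.53 and 0.50) and Nop58 (0.63 in both libraries), and Srm, spermidine synthase, at 1.00 and 1.16. Against Top2a-positive cells of score 1 or more, Ncl, Nop58 and Srsf7 had log2 ratios from -0.16 to 0.06 and Dek had -0.84 and -0.92.

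A few genes that were lower in selected than in comparison cells were lower still in Top2a-positive cells of score 1 or more. Mxd4, a repressor of the MYC network, had 1.31 and 1.49 in selected cells, 2.42 and 2.75 in comparison cells and 0.835 and 1.03 in Top2a-positive cells. Kdm5b, a histone demethylase, had 1.14 and 1.34, with 1.70 and 1.92 in comparison cells and 0.689 and 0.705 in Top2a-positive cells. Cdkn1a ran the other way, since it was lowest in selected cells, at 1.61 and 1.27, and was 3.17 and 1.89 in comparison cells and 2.97 and 3.26 in Top2a-positive cells. These genes were also chosen after their values were seen.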
